A study of Homo sapiens with 8 samples.

Results

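This account covers 32 genes that p53 is known to activate or that control apoptosis, in islet-like cells made from human embryonic stem cells. The genes were given as a list of names, with no measured value in the rule. All 32 were found among the 38592 genes of the deposited count table, and all 32 passed the filter on low counts that left 22184 genes for testing. The parental line was H1, a long-established line of human embryonic stem cells, and it was used unedited (WT) or with ISL1, PAX6 or PDX1 knocked out (KO). These 3 genes encode transcription factors of the developing pancreas and its hormone cells. On day 11 of islet differentiation the cells received a vector for ISL1 with a blue fluorescent protein (ISL1-IRES2-BFP, here ISL1 OE) or a control vector for the fluorescent protein alone (BFP), and on day 18 they were harvested.

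RNA was sequenced from 21 libraries in 8 groups, which the submitters call biological replicates. WT had 2 libraries with either vector, ISL1 KO and PAX6 KO had 3 with either vector, and PDX1 KO had 3 with BFP and 2 with ISL1 OE. All groups, controls included, carried a BFP vector, so none was free of transduction. Each genotype is labelled as 1 line with no number of clones, so a knockout and a difference between lines cannot be told apart. The 3 knockouts were compared with the same WT libraries.

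p53 is a transcription factor that is held at a low level by MDM2, a ubiquitin ligase, with help from MDM4. DNA damage and other stress release it, and it then binds response elements near its target genes. The targets arrest the cell cycle (CDKN1A), repair DNA (XPC, DDB2), change metabolism (TIGAR, SESN1), switch on death receptors (FAS, TNFRSF10B) and start mitochondrial apoptosis through the BCL2 family (BBC3, BAX, PMAIP1). MDM2 is itself a target, which closes a feedback loop. Human pluripotent stem cells and their early derivatives are known for a low threshold to p53-driven death.

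The response element consists of 2 decamers, and its core can be read in the promoters of several members, so these sequences are shown first. RefSeq (GRCh38.p14) gave promoters from 250 bases before to 50 after the start for 26 of the 32 genes. No entry was matched for RRM2B, PHLDA3, TP53INP1, TNFRSF10A, TNFRSF10B and MCL1. The p53 consensus was searched as 2 decamers placed end to end, each with its core C and G kept and with at most 3 mismatches over the 20 positions. It reads the same on both strands, so 1 strand covers both, and the limit of 3 was chosen after the scan had been seen. A match was found for 8 of the 26 genes (30.8%), against 1.37% of all 27305 genes with a promoter entry. With at most 2 mismatches it was 4 of 26 (15.4%, against 0.359%), and with at most 4 it was 9 of 26 (34.6%, against 4.92%). A match describes letters in a window and is not evidence of binding. Below are the 250 bases before the start, 5′ to 3′ on the gene's strand, for 3 members whose RNA was lower in knockout libraries; the capitals mark the match.
MDM2 (internal promoter, chr12:68808767-68809016, + strand): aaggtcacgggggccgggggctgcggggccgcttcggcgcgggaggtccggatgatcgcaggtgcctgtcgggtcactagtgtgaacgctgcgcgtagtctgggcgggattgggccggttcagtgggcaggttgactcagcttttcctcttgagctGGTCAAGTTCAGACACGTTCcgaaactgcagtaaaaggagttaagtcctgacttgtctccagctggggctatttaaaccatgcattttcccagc
FAS (chr10:88991181-88991430, + strand): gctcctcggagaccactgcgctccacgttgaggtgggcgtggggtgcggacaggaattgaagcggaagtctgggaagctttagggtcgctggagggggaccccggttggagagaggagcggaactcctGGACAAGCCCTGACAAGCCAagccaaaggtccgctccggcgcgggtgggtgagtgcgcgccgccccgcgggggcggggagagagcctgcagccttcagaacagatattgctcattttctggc
PMAIP1 (chr18:59899746-59899995, + strand): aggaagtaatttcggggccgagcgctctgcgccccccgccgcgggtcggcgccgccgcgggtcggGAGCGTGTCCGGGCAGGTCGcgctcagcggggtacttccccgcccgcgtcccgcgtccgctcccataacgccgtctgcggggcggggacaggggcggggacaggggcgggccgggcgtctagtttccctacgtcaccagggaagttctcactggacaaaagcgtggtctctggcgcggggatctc
The other 5 matches are shown as the 20 matched bases alone. DDB2 and GDF15 are described below as lower in knockout libraries, while SESN1, AEN and FDXR passed the test in no comparison over all libraries.
DDB2 (chr11:47214969-47214988, + strand): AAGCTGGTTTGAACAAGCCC
GDF15 (chr19:18386186-18386205, + strand): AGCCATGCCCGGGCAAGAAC
SESN1 (chr6:109009018-109009037, - strand): GGACAAGTCTCCACAAGTCA
AEN (chr15:88621306-88621325, + strand): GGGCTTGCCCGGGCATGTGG
FDXR (chr17:74872996-74873015, - strand): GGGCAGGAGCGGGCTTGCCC
The DDB2 match had 1 mismatch, those of MDM2, FAS and AEN had 2, and those of PMAIP1, GDF15, SESN1 and FDXR had 3. It began 94 bases before the start of MDM2's internal promoter, 185 before that of PMAIP1, 49 before that of SESN1, 34 before that of AEN, 21 before that of FDXR and 5 before that of DDB2. In GDF15 it began at base 29 of the transcript. The starts used are not always the outermost of the gene. In the GENCODE 29 annotation FAS begins at chr10:88990582, GDF15 at chr19:18374731 and SESN1, on the - strand, at chr6:109094819. The matches of these genes thus lie inside their annotated spans. CDKN1A and PLK2, which had the lowest adjusted p of the members in ISL1 KO and PAX6 KO in BFP libraries, had no match in this window.

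Total counts ran from 40959467 to 66818614 per library, and 24676 to 27281 genes were detected. Levels are given in CPM, counts relative to the size of the library after scaling with TMM factors, and differences as log2 fold changes with the standard error (SE) of the fitted model. Every adjusted p is from edgeR's quasi-likelihood test with Benjamini-Hochberg adjustment over 22184 genes, and a gene is said to have risen or fallen where it was under 0.05. The edited genes gave a mixed check of the labels. ISL1 RNA was 61.6 to 84.0 CPM in the 6 ISL1 KO libraries against 285 to 484 in the 4 WT libraries. PAX6 RNA in PAX6 KO and PDX1 RNA in PDX1 KO were not reduced in this way, with PAX6 at 98.8 to 159 CPM in PAX6 KO BFP and PDX1 at 93.1 to 105 in PDX1 KO BFP. ISL1 RNA was not higher in libraries labelled ISL1 OE (313 and 326 CPM in WT ISL1 OE), so the vector label is not checked by its own gene, and ISL1 OE stands below for the label. The endocrine markers CHGA, CHGB, SCG5, NEUROD1, INSM1, SCGN and PCSK1N were present in every library, with a summed level of 11080 to 48450 CPM, while POU5F1 and NANOG of pluripotent cells were under 1 CPM in the BFP libraries. The whole list of pluripotent markers (POU5F1, NANOG, PRDM14, DPPA4 and LIN28A) summed to 14.7 and 15.6 CPM in WT BFP, 7.99 to 12.7 in ISL1 KO BFP and PDX1 KO BFP and 31.6 to 40.6 in PAX6 KO BFP. In the last PRDM14 was at 20.6 to 32.01 CPM against 2.90 and 3.60 in WT BFP. Of the 4 tested, 1 rose and 1 fell in PAX6 KO. With the ISL1 vector the list summed to 62.8 and 68.6 CPM in WT, 69.2 to 87.4 in ISL1 KO and 51.8 to 89.6 in PAX6 KO. These were above the BFP libraries of the same genotype. PDX1 KO ISL1 OE was at 8.24 and 37.3 CPM, which overlaps PDX1 KO BFP.

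Libraries apart were found in the ISL1 OE arm. These were PAX6 KO ISL1 OE replicate 3 and PDX1 KO ISL1 OE replicate 4. Their groups had the lowest within-group correlations of log2 CPM, 0.927 and 0.900, where all other groups were at 0.982 or above. In both libraries, genes with short transcripts were high and genes with long transcripts low against the rest of the group. The median difference from the other libraries of their group was 2.26 and 2.64 log2 units larger for the shortest of 4 length classes than for the longest, where libraries of the other 6 groups lay between -0.308 and 0.406. The members followed this pattern. All 11 members of the longest class were below those other libraries in both, with medians of -1.18 and -1.33 log2 units, and BAX and GDF15, the 2 members of the shortest class, were above them by 1.04 and 1.03 in the first and by 1.80 and 1.93 in the second. PDX1 KO ISL1 OE holds 2 libraries, so its correlation and length difference belong to the pair and do not say which library is apart. Replicate 4 was taken as that library. Its TMM factor of 0.707 was the lowest of all, against 1.02 in replicate 2. Results that rest on these libraries apart are therefore given with and without them.

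**Figure D1:**
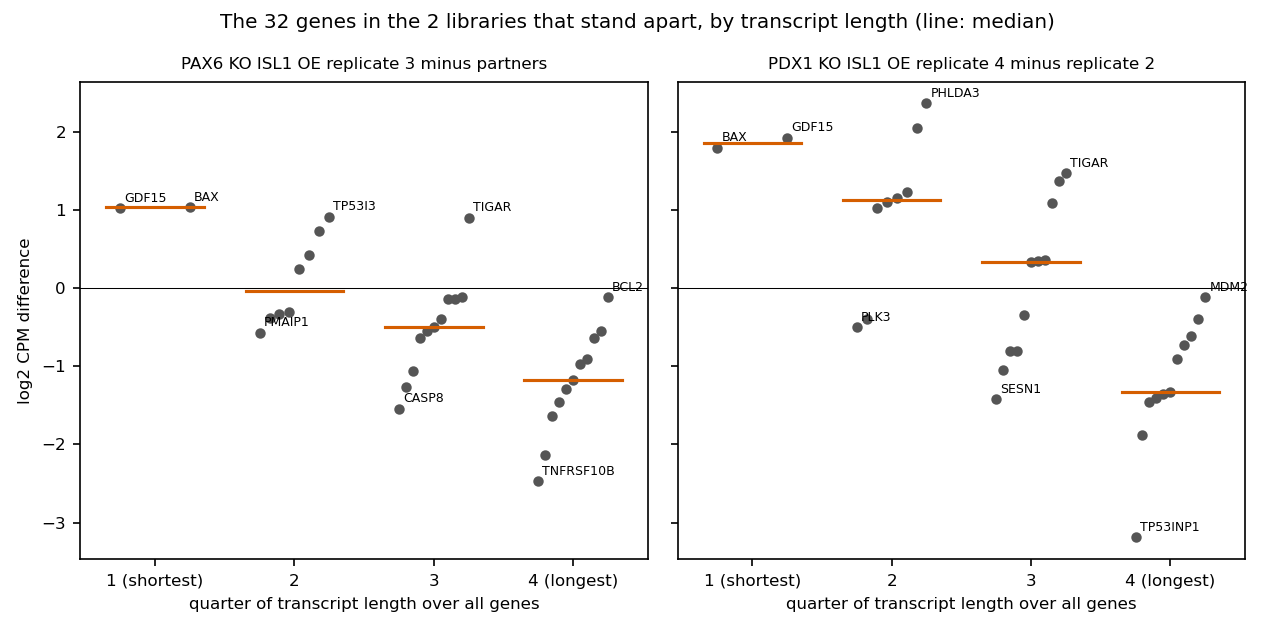
Difference in log2 CPM (vertical axis) of the 32 genes between each library that stands apart and the mean of the other libraries of its group, by class of transcript length over all genes (horizontal axis, 1 shortest to 4 longest). Points are genes and lines are class medians, which fell from 1.04 to -1.18 in the PAX6 KO library and from 1.86 to -1.33 in the PDX1 KO library.

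In BFP libraries more members fell than rose in each knockout against WT. In ISL1 KO 8 of 32 members fell and none rose, 25% of the list against 6.53% of all genes tested, of which 4.48% fell and 2.05% rose. In PAX6 KO 7 fell and 1 rose, 25% against 6.65% of all genes (4.25% fell and 2.41% rose). In PDX1 KO 9 fell and 1 rose, 31.2% against 11.4% (6.84% fell and 4.56% rose). The median log2 fold change of the 32 genes was -0.504 in ISL1 KO, -0.499 in PAX6 KO and -0.373 for PDX1 KO, where that of all genes was 0.026, 0.004 and 0.019. The genes that fell in these comparisons were CDKN1A, PLK2, BTG2, CCNG1, MDM2, DDB2, GDF15, PHLDA3, ZMAT3, FAS, TNFRSF10A and PMAIP1, and those that rose were BCL2 and FBXW7. In bulk RNA, fewer cells of a type and less RNA per cell cannot be told apart.

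The counts moved with the libraries in the fit. Without the 2 libraries apart, which enter these comparisons only through the shared fit (common dispersion 0.114 with them, 0.0344 without), 17 members were called in ISL1 KO, all lower, beside 28.5% of all genes. In PAX6 KO 20 were called, 17 of them lower, beside 28.8%, and in PDX1 KO 16, 14 of them lower, beside 33.3%. Leaving out any 1 of the libraries compared lowered the counts. Without 1 knockout library they were 2 to 5 in ISL1 KO (beside 2.72% to 4.22% of all genes) and 2 to 3 in PAX6 KO (2.42% to 4.62%). In PDX1 KO they were 4 to 7 (6.36% to 8.04%). Leaving out a WT library leaves 1 in its group, and the share of all genes called was then lower too. The levels themselves separated more widely than the calls. All libraries of the knockout lay below both WT BFP libraries for 23 members in ISL1 KO, 24 in PAX6 KO and 22 for PDX1 KO (71.9%, 75.0% and 68.8%), where 26.6%, 26.4% and 27.9% of all genes did so. Over both vectors, all 17 knockout libraries lay below all 4 WT libraries for MDM2, PLK2 and RRM2B (9.38% of members, 2.31% of genes). With the 2 libraries left out, 10 members did so, namely these and CDKN1A, DDB2, FDXR, GDF15, PHLDA3, PMAIP1 and TNFRSF10A (31.2% of members, 5.26% of genes).

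**Figure D2:**
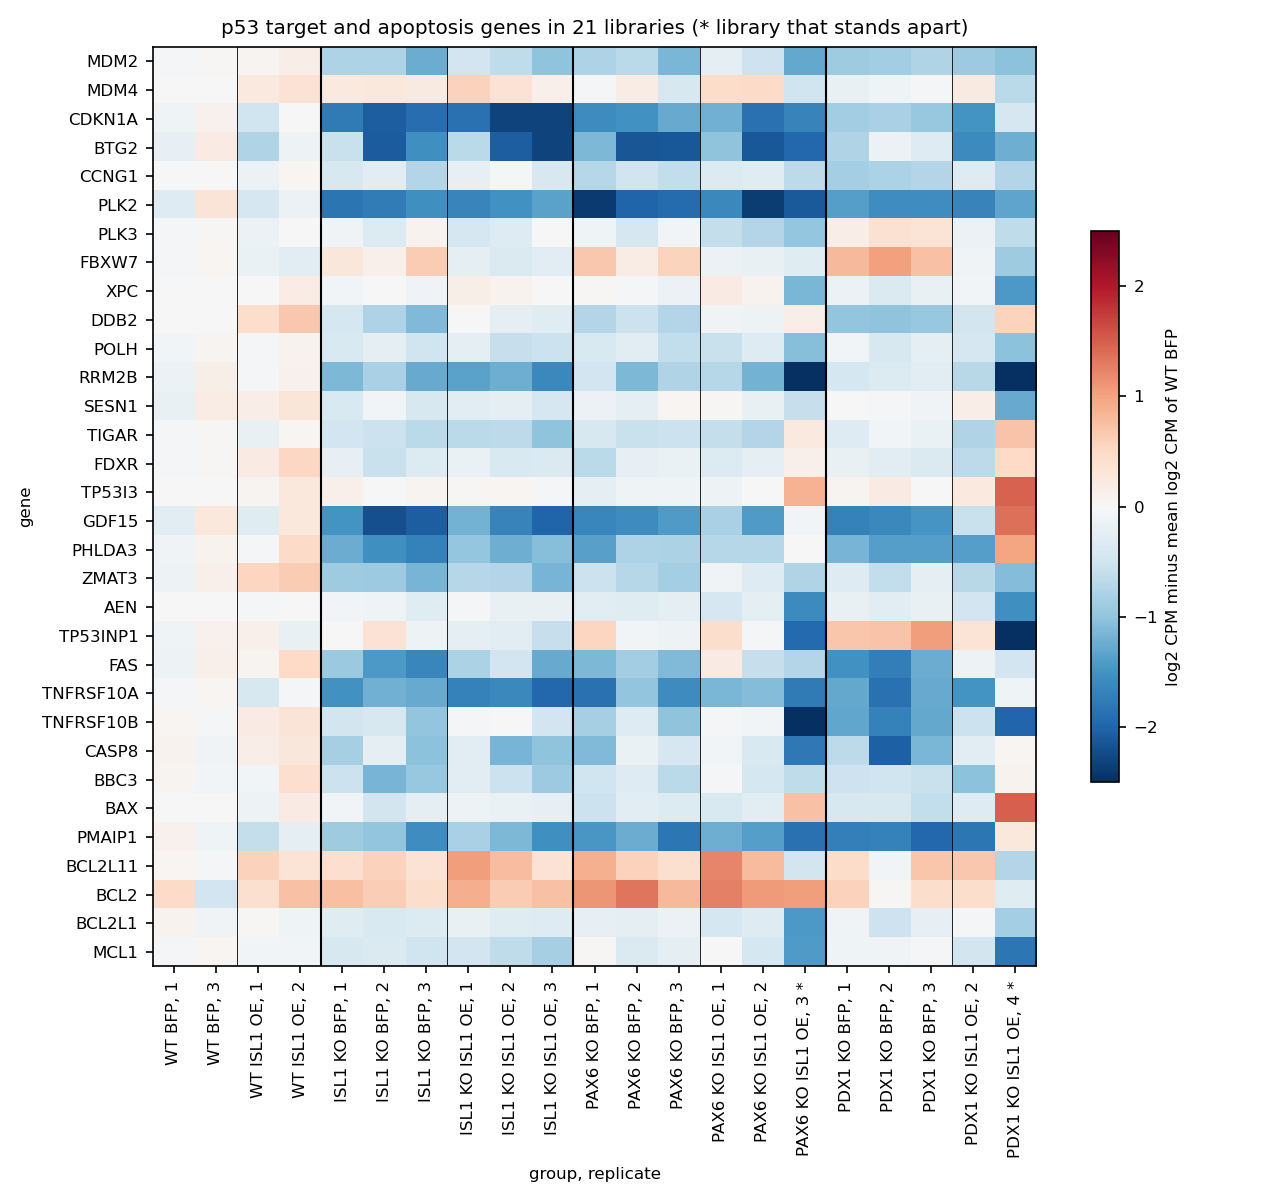
Level of the 32 genes (rows) in 21 libraries (columns) as log2 CPM minus the mean log2 CPM of WT BFP, with colours ending at -2.5 and 2.5. With BFP, 25 of the genes had a negative fold change in all 3 knockouts, while MDM4, FBXW7, PLK3, TP53I3, TP53INP1, BCL2L11 and BCL2 did not. The share of all genes negative in all 3 is not given here. Per knockout (ISL1, PAX6, PDX1) 81.2%, 87.5% and 81.2% of members were negative, against 48%, 49.7% and 48.7% of all genes. In mean TPM, AEN, XPC, SESN1, FDXR, BAX, BCL2L1 and MCL1 of the 25 were not lower in all 3, and the others were. The 2 libraries marked with an asterisk differ from the other libraries of their groups.

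**Figure D3:**
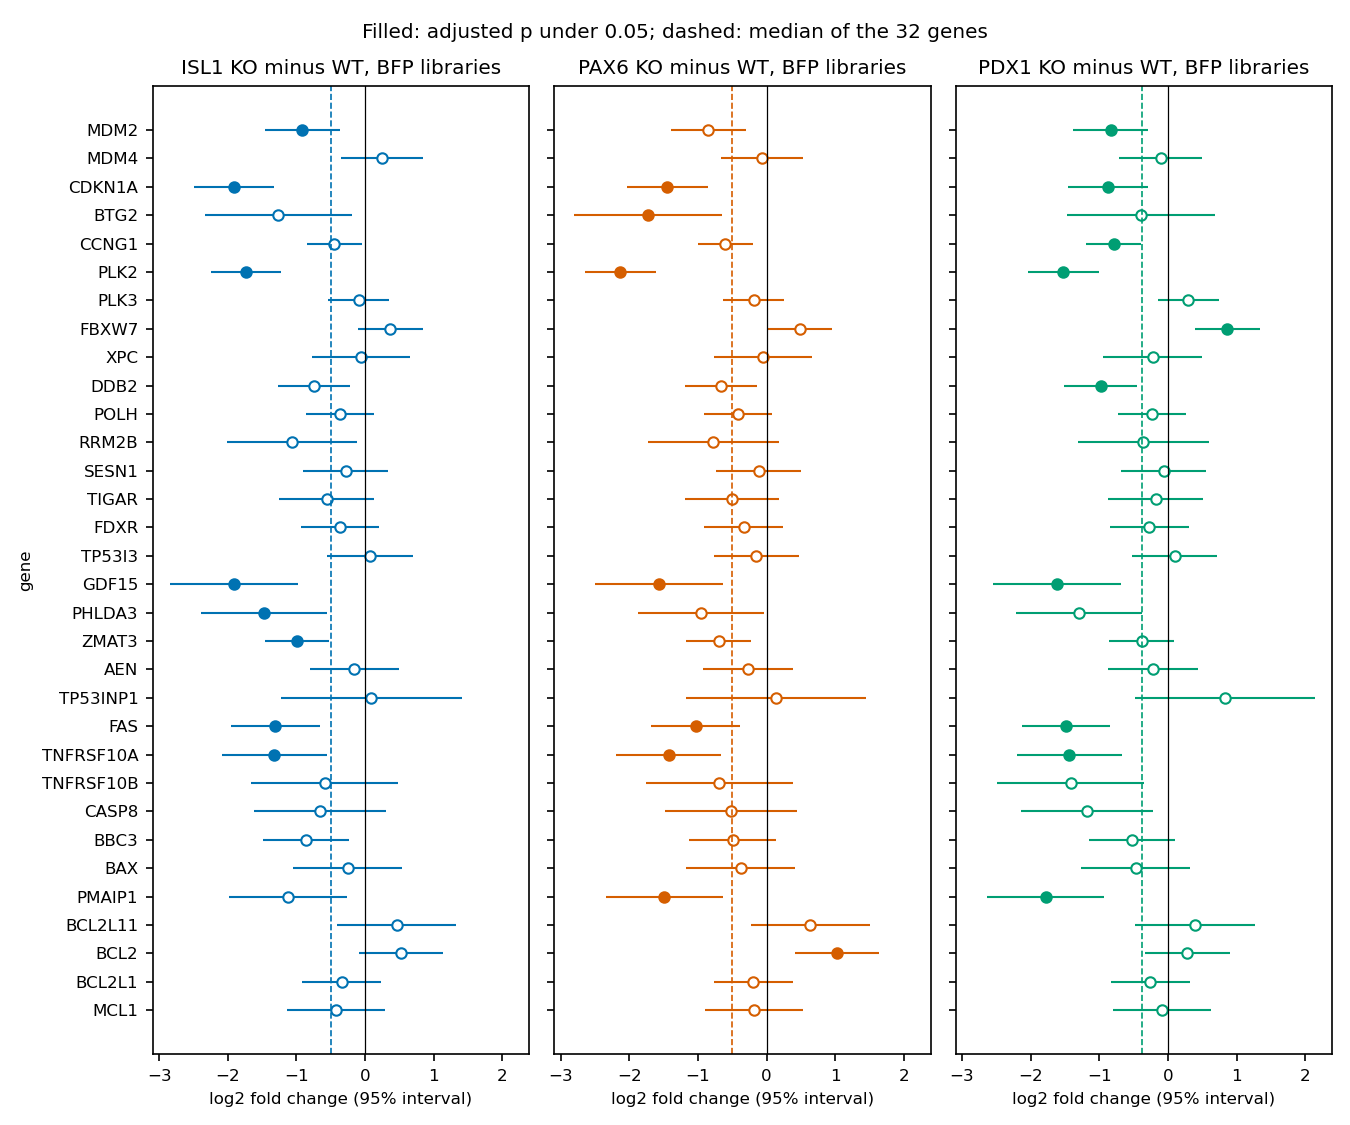
Log2 fold change of each gene against WT in BFP libraries (horizontal axis) with its 95% interval, one panel per knockout, over all 21 libraries. Filled points passed an adjusted p of 0.05 and the dashed line is the median of the 32 genes (-0.504, -0.499 and -0.373).

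Cell type markers also differed between the groups. The endocrine markers named above summed to 21250 and 26510 CPM in WT BFP, 25050 to 34300 in ISL1 KO BFP, 16180 to 26860 in PAX6 KO BFP and 45030 to 48450 in PDX1 KO BFP. Of the 7 none was called in ISL1 KO, 1 fell in PAX6 KO and 1 rose in PDX1 KO. Liver markers (ALB, AFP, APOA1, APOB, TTR, FGB and SERPINA1) summed to 17650 to 19170 CPM in WT BFP, 6731 to 9344 in ISL1 KO BFP, 5876 to 7490 in PAX6 KO BFP and 4890 to 5303 in PDX1 KO BFP, and 3, 4 and 5 of the 7 fell. Endothelial markers (PECAM1, CDH5, KDR, TEK and VWF) summed to 14.5 to 24.8 CPM in WT BFP and to 1.51 to 6.77 in the knockouts. Of these, 1 of 5 fell in ISL1 KO and 2 of 5 in either other knockout, and PECAM1 was at 0 in 6 of the 9 knockout BFP libraries. Neuronal markers (ELAVL3, STMN2, POU4F1, TUBB3 and DCX) summed to 330 to 486 CPM in WT BFP and 484 to 784 in the knockouts, and 3 of 5 rose in each. Duct and progenitor markers (SOX9, KRT19, KRT7, CFTR, SPP1 and ONECUT1) summed to 1280 to 1319 CPM in WT BFP and 570 to 1585 in the knockouts, and 1, 1 and 2 of 6 fell. Proliferation markers (MKI67, TOP2A, CDK1, CCNB1, BUB1 and AURKB) summed to 226 to 334 CPM in WT BFP, 353 to 498 in ISL1 KO BFP, 187 to 388 in PAX6 KO BFP and 129 to 161 in PDX1 KO BFP, and 2 of 6 fell in PDX1 KO alone. Mesenchymal markers (COL1A1, COL1A2, COL3A1, PDGFRA, PDGFRB and DCN) summed to 189 and 1073 CPM in WT BFP and to 80.7 to 808 in the knockouts with none called. The part of these cells in the result was not tested.

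Among the regulators of p53, MDM2 RNA was lower in every knockout library. MDM2 had CPM values of 106 and 109.7 in WT BFP, 63.0, 63.5 and 45.4 in ISL1 KO BFP, 63.0, 67.8 and 48.6 in PAX6 KO BFP and 58.4, 59.0 and 63.6 in PDX1 KO BFP. No knockout value reached a WT value. Its log2 fold change was -0.91 ± 0.26 (SE, adjusted p = 0.0422) in ISL1 KO, -0.85 ± 0.26 (SE, adjusted p = 0.0553) in PAX6 KO and -0.84 ± 0.26 (SE, adjusted p = 0.0436) in PDX1 KO. The calls in ISL1 KO and PDX1 KO were lost without any 1 of the 5 libraries compared (log2 -0.99 to -0.77, adjusted p up to 0.195 and log2 -0.88 to -0.80, adjusted p up to 0.195). Both calls were also lost with library size alone and with no filter on low counts (adjusted p up to 0.182 in ISL1 KO and 0.156 in PDX1 KO). With the libraries apart left out, MDM2 passed in all 3 (adjusted p = 0.000716, 0.00138 and 0.000916). In the ISL1 OE arm MDM2 had CPM values of 112.4 and 120.3 in WT ISL1 OE, 77.8, 69.3 and 53.9 in ISL1 KO ISL1 OE, 92.9, 74.9 and 44.3 in PAX6 KO ISL1 OE and 57.6 and 53.2 in PDX1 KO ISL1 OE, again without overlap. MDM4, which inhibits p53 without being a strong target, did not pass the test in any knockout (log2 0.24, -0.07 and -0.11).

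MDM2 has 2 promoters, and the match shown above lies at the internal one, which p53 is known to use. In the deposited transcript table, 22 transcripts start at the internal promoter (chr12:68809002-68809227) and 6 at the upstream one (chr12:68808176-68808464). The estimated counts of the internal group were a small share of both, 1.27% and 1.90% in WT BFP and 0.125% to 1.0% in ISL1 KO BFP, at 1.34 and 1.96 CPM against 0.0545 to 0.621. PAX6 KO BFP was at 1.17% to 2.32% and PDX1 KO BFP at 0.612% to 1.84%, which overlap WT. The 2 libraries apart had the highest shares, 7.27% and 7.19%. These transcripts share most exons, so the split between them is an estimate, and no test was made of it.

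Cell cycle genes held the lowest adjusted p of the list in BFP libraries. CDKN1A encodes p21, the inhibitor of cyclin-dependent kinases through which p53 stops the cycle. CDKN1A had CPM values of 199 and 233 in WT BFP, 63.1, 51.9 and 57.2 in ISL1 KO BFP, 72.8, 75.6 and 89.5 in PAX6 KO BFP and 118.3, 123 and 112.3 in PDX1 KO BFP. ISL1 KO was lowest, PDX1 KO was intermediate, and no group overlapped WT. The log2 fold change was -1.91 ± 0.28 (SE, adjusted p = 0.000559) in ISL1 KO, -1.44 ± 0.28 (SE, adjusted p = 0.00523) in PAX6 KO and -0.87 ± 0.28 (SE, adjusted p = 0.0479) in PDX1 KO. The ISL1 KO call held without each library in turn. The PAX6 KO call was lost without WT BFP replicate 3 (log2 -1.54 to -1.30, adjusted p up to 0.0854), and the PDX1 KO call without any 1 of 5 libraries (log2 -0.96 to -0.75, adjusted p up to 0.281). The latter was also lost with the replicate number as a block within ISL1 KO and PAX6 KO (adjusted p = 0.0657), and with library size alone or no filter on low counts (adjusted p up to 0.0803). In the ISL1 OE arm CDKN1A had CPM values of 153 and 215 in WT ISL1 OE, 58.8, 43.5 and 43.1 in ISL1 KO ISL1 OE, 93.7, 58.8 and 67.7 in PAX6 KO ISL1 OE and 76.1 and 162 in PDX1 KO ISL1 OE. The 162 of PDX1 KO ISL1 OE replicate 4, a library apart, was the single knockout value inside the WT range. There the log2 fold change was -1.93 ± 0.28 (SE, adjusted p = 0.000918) in ISL1 KO, -1.33 ± 0.28 (SE, adjusted p = 0.01) in PAX6 KO and -0.63 ± 0.30 (SE, adjusted p = 0.297) in PDX1 KO, which was -1.28 ± 0.25 (SE, adjusted p = 0.00648) without the libraries apart. The PAX6 KO call was lost without WT ISL1 OE replicate 2 (log2 -1.56 to -1.03, adjusted p up to 0.216).

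PLK2, a stress-induced polo-like kinase, was the member with the lowest adjusted p in each knockout in BFP libraries. PLK2 had CPM values of 184 and 286 in WT BFP, 64.3, 68.4 and 79.0 in ISL1 KO BFP, 44.0, 57.0 and 60.2 in PAX6 KO BFP and 88.2, 78.5 and 78.3 in PDX1 KO BFP. All 9 knockout values were below the lower WT value. Its log2 fold change was -1.74 ± 0.24 (SE, adjusted p = 0.000404) in ISL1 KO, -2.13 ± 0.24 (SE, adjusted p = 0.000111) in PAX6 KO and -1.52 ± 0.24 (SE, adjusted p = 0.000892) in PDX1 KO, and all 3 calls held without each library in turn. The ISL1 OE arm gave CPM values of 170.5 and 208 in WT ISL1 OE, 72.7, 80.8 and 90.3 in ISL1 KO ISL1 OE, 74.7, 44.2 and 53.2 in PAX6 KO ISL1 OE and 71.8 and 91.8 in PDX1 KO ISL1 OE. The log2 fold change there was -1.22 ± 0.24 (SE, adjusted p = 0.0079) in ISL1 KO, -1.72 ± 0.24 (SE, adjusted p = 0.000644) in PAX6 KO and -1.21 ± 0.27 (SE, adjusted p = 0.0464) in PDX1 KO. Leaving out WT ISL1 OE replicate 2 ended the ISL1 KO call (log2 -1.35 to -1.07, adjusted p up to 0.12), and leaving out either WT ISL1 OE library ended that in PDX1 KO (log2 -1.38 to -0.97, adjusted p up to 0.387), as did the replicate block (adjusted p = 0.0771). PLK3, a related kinase, had CPM values of 18.8 and 19.6 in WT BFP, 18.2, 15.2 and 20.5 in ISL1 KO BFP, 17.8, 14.3 and 18.4 in PAX6 KO BFP and 21.5, 24.9 and 24.4 in PDX1 KO BFP. Its groups overlapped in ISL1 KO, and its log2 fold change was -0.09 in ISL1 KO, -0.19 in PAX6 KO and 0.30 for PDX1 KO, none called.

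BTG2, an anti-proliferative cofactor of RNA decay, varied widely within groups. BTG2 had CPM values of 560.1 and 738 in WT BFP, 439, 152 and 221 in ISL1 KO BFP, 297, 145 and 148 in PAX6 KO BFP and 382, 584 and 513 in PDX1 KO BFP. Replicate 1 was the highest library of ISL1 KO and of PAX6 KO. BTG2 fell in PAX6 KO (-1.72 ± 0.51 SE, adjusted p = 0.0497) and did not pass the test in ISL1 KO (-1.26 ± 0.51) or PDX1 KO (-0.40 ± 0.51), and its call was lost without any 1 of the 5 libraries (log2 -2.15 to -1.49, adjusted p up to 0.288). CCNG1, which encodes cyclin G1, had CPM values of 226 and 224 in WT BFP, 172, 188 and 136 in ISL1 KO BFP, 138, 160.2 and 147 in PAX6 KO BFP and 124.7, 131 and 135 in PDX1 KO BFP. All 9 knockout values were below both WT values. It fell in PDX1 KO (-0.79 ± 0.19 SE, adjusted p = 0.0117), a call lost without either WT BFP library (log2 -0.82 to -0.76, adjusted p up to 0.0925), and was at -0.45 ± 0.19 in ISL1 KO and -0.60 ± 0.19 in PAX6 KO. These passed once the libraries apart were left out (adjusted p = 0.0115 and 0.00185). FBXW7, the substrate receptor of a ubiquitin ligase that degrades cyclin E and MYC, went the other way. FBXW7 had CPM values of 65.3 and 70.8 in WT BFP, 82.9, 74.6 and 106 in ISL1 KO BFP, 108.6, 77.2 and 99.5 in PAX6 KO BFP and 118.7, 138 and 114 in PDX1 KO BFP. It rose in PDX1 KO (0.86 ± 0.22 SE, adjusted p = 0.0224), and the call was lost without WT BFP replicate 1 or 3 or PDX1 KO BFP replicate 2 (log2 0.77 to 0.93, adjusted p up to 0.181). With the ISL1 vector FBXW7 had CPM values of 60.4 and 56.0 in WT ISL1 OE, 58.0, 53.1 and 55.6 in ISL1 KO ISL1 OE, 61.3, 59.9 and 55.3 in PAX6 KO ISL1 OE and 63.6 and 36.6 in PDX1 KO ISL1 OE, and its log2 fold changes against WT were -0.07, 0.02 and -0.22.

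Of the 4 repair and nucleotide genes, DDB2 alone passed the test, and in PDX1 KO alone. DDB2, the damage sensor of nucleotide excision repair, had CPM values of 23.8 and 23.6 in WT BFP, 17.5, 13.9 and 11.1 in ISL1 KO BFP, 14.3, 16.3 and 14.2 in PAX6 KO BFP and 11.96, 11.8 and 12.2 in PDX1 KO BFP. The knockout values were all below the WT values. Its log2 fold change was -0.98 ± 0.25 (SE, adjusted p = 0.0159) in PDX1 KO, -0.74 ± 0.25 in ISL1 KO and -0.67 ± 0.25 in PAX6 KO; the call was lost without WT BFP replicate 1 or 3 or PDX1 KO BFP replicate 2 or 3 (log2 -0.99 to -0.95, adjusted p up to 0.137). DDB2 passed in all 3 once the 2 libraries apart were left out (adjusted p = 0.00171, 0.00424 and 0.000104). The ISL1 OE arm gave DDB2 CPM values of 32.1 and 37.9 in WT ISL1 OE, 23.5, 20.2 and 19.2 in ISL1 KO ISL1 OE, 22.3, 21.8 and 26.2 in PAX6 KO ISL1 OE and 17.1 and 34.9 in PDX1 KO ISL1 OE, where the library apart of PDX1 KO alone lay inside the WT range. RRM2B, the p53-induced subunit of ribonucleotide reductase, had CPM values of 104 and 129 in WT BFP, 52.9, 65.8 and 48.4 in ISL1 KO BFP, 82.7, 53.3 and 68.5 in PAX6 KO BFP and 85.0, 91.5 and 96.0 in PDX1 KO BFP. It was lower in each knockout library than in both WT libraries, yet its log2 fold changes of -1.06 ± 0.45 in ISL1 KO, -0.77 ± 0.45 in PAX6 KO and -0.36 ± 0.45 for PDX1 KO did not pass the test. RRM2B differed by -1.64 and -1.88 log2 units between the libraries apart and the others of their groups, and without them it fell in ISL1 KO (-1.07 ± 0.18 SE, adjusted p = 0.000381) and PAX6 KO (-0.76 ± 0.18 SE, adjusted p = 0.00463). XPC and POLH, for lesion recognition and bypass, lay between -0.42 and -0.05 in the 3 knockouts, and of these XPC in PDX1 KO alone passed without the libraries apart (-0.25 ± 0.09 SE, adjusted p = 0.0496). In mean TPM, counts per transcript length, XPC was instead higher in each knockout. It was at 33.4 in WT BFP and 40.2, 44.8 and 34.2 in ISL1 KO, PAX6 KO and PDX1 KO BFP.

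None of the 4 redox and metabolic targets passed the test between a knockout and WT over all libraries. TIGAR, which diverts glucose to the pentose phosphate pathway, had CPM values of 43.6 and 45.0 in WT BFP, 31.9, 30.4 and 28.0 in ISL1 KO BFP, 33.5, 30.0 and 30.4 in PAX6 KO BFP and 35.6, 42.1 and 39.4 in PDX1 KO BFP, with no overlap between WT and any knockout. Its log2 fold change was -0.56 ± 0.33 in ISL1 KO, -0.50 ± 0.33 in PAX6 KO and -0.18 ± 0.33 for PDX1 KO, none called over all libraries. TIGAR fell without the libraries apart in ISL1 KO (-0.57 ± 0.12 SE, adjusted p = 0.00256) and PAX6 KO (-0.49 ± 0.12 SE, adjusted p = 0.00642). FDXR, the mitochondrial ferredoxin reductase, lay between -0.36 and -0.27, and SESN1, a sestrin, between -0.29 and -0.07. Neither passed in BFP libraries without the libraries apart. In ISL1 OE libraries without them, FDXR and TIGAR fell in ISL1 KO and PAX6 KO, and SESN1 fell in at least 1 knockout. For FDXR and TIGAR, PDX1 KO is left out of this statement because it then has 1 ISL1 OE library, not because they did not differ there. TP53I3, a quinone oxidoreductase, had CPM values of 103 and 101 in WT BFP, 110.5, 102 and 107 in ISL1 KO BFP, 86.0, 94.7 and 94.2 in PAX6 KO BFP and 107, 116.6 and 102 in PDX1 KO BFP, and its log2 fold changes of 0.07, -0.15 and 0.10 had 95% intervals of -0.55 to 0.69, -0.77 to 0.47 and -0.53 to 0.72.

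GDF15, a secreted stress cytokine, and PHLDA3, which blocks AKT at the membrane, were among the members with the largest differences. Per length, GDF15 was also the most abundant of the 32 genes in WT BFP, at 357 ± 75.9 TPM (SD, n = 2), where BCL2 was the least abundant at 0.725 ± 0.402 TPM. GDF15 had CPM values of 235 and 335 in WT BFP, 99.3, 60.7 and 66.9 in ISL1 KO BFP, 89.97, 93.6 and 105 in PAX6 KO BFP and 86.8, 92.1 and 100.2 in PDX1 KO BFP. All 9 knockout libraries were under the lower WT value. The log2 fold change was -1.91 ± 0.44 (SE, adjusted p = 0.0145) in ISL1 KO, -1.56 ± 0.44 (SE, adjusted p = 0.0401) in PAX6 KO and -1.61 ± 0.44 (SE, adjusted p = 0.0236) in PDX1 KO. The PAX6 KO and PDX1 KO calls were lost without any 1 of 5 libraries (log2 -1.76 to -1.26, adjusted p up to 0.313 and log2 -1.82 to -1.32, adjusted p up to 0.195), and the ISL1 KO call without WT BFP replicate 1 or 3 or ISL1 KO BFP replicate 2 or 3 (log2 -2.16 to -1.64, adjusted p up to 0.157). With the ISL1 vector GDF15 had CPM values of 228 and 334 in WT ISL1 OE, 123, 88.6 and 70.2 in ISL1 KO ISL1 OE, 161, 105 and 266 in PAX6 KO ISL1 OE and 191 and 725 in PDX1 KO ISL1 OE. The 725 belongs to PDX1 KO ISL1 OE replicate 4. PHLDA3 had CPM values of 40.6 and 46.0 in WT BFP, 18.3, 14.9 and 13.5 in ISL1 KO BFP, 16.8, 25.2 and 25.02 in PAX6 KO BFP and 19.4, 16.6 and 16.6 in PDX1 KO BFP. No knockout value reached a WT value. It fell in ISL1 KO (-1.48 ± 0.43 SE, adjusted p = 0.0491), a call lost without any 1 of 5 libraries (log2 -1.61 to -1.38, adjusted p up to 0.249) and with the replicate block (adjusted p = 0.0736), and was at -0.95 ± 0.43 in PAX6 KO and -1.30 ± 0.43 for PDX1 KO. PHLDA3 passed in all 3 once the libraries apart were left out (adjusted p = 2.04e-05, 0.000992 and 3.73e-05). The ISL1 OE arm gave CPM values of 41.5 and 60.0 in WT ISL1 OE, 22.2, 18.5 and 20.7 in ISL1 KO ISL1 OE, 26.3, 26.2 and 43.7 in PAX6 KO ISL1 OE and 16.6 and 85.8 in PDX1 KO ISL1 OE.

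**Figure D4:**
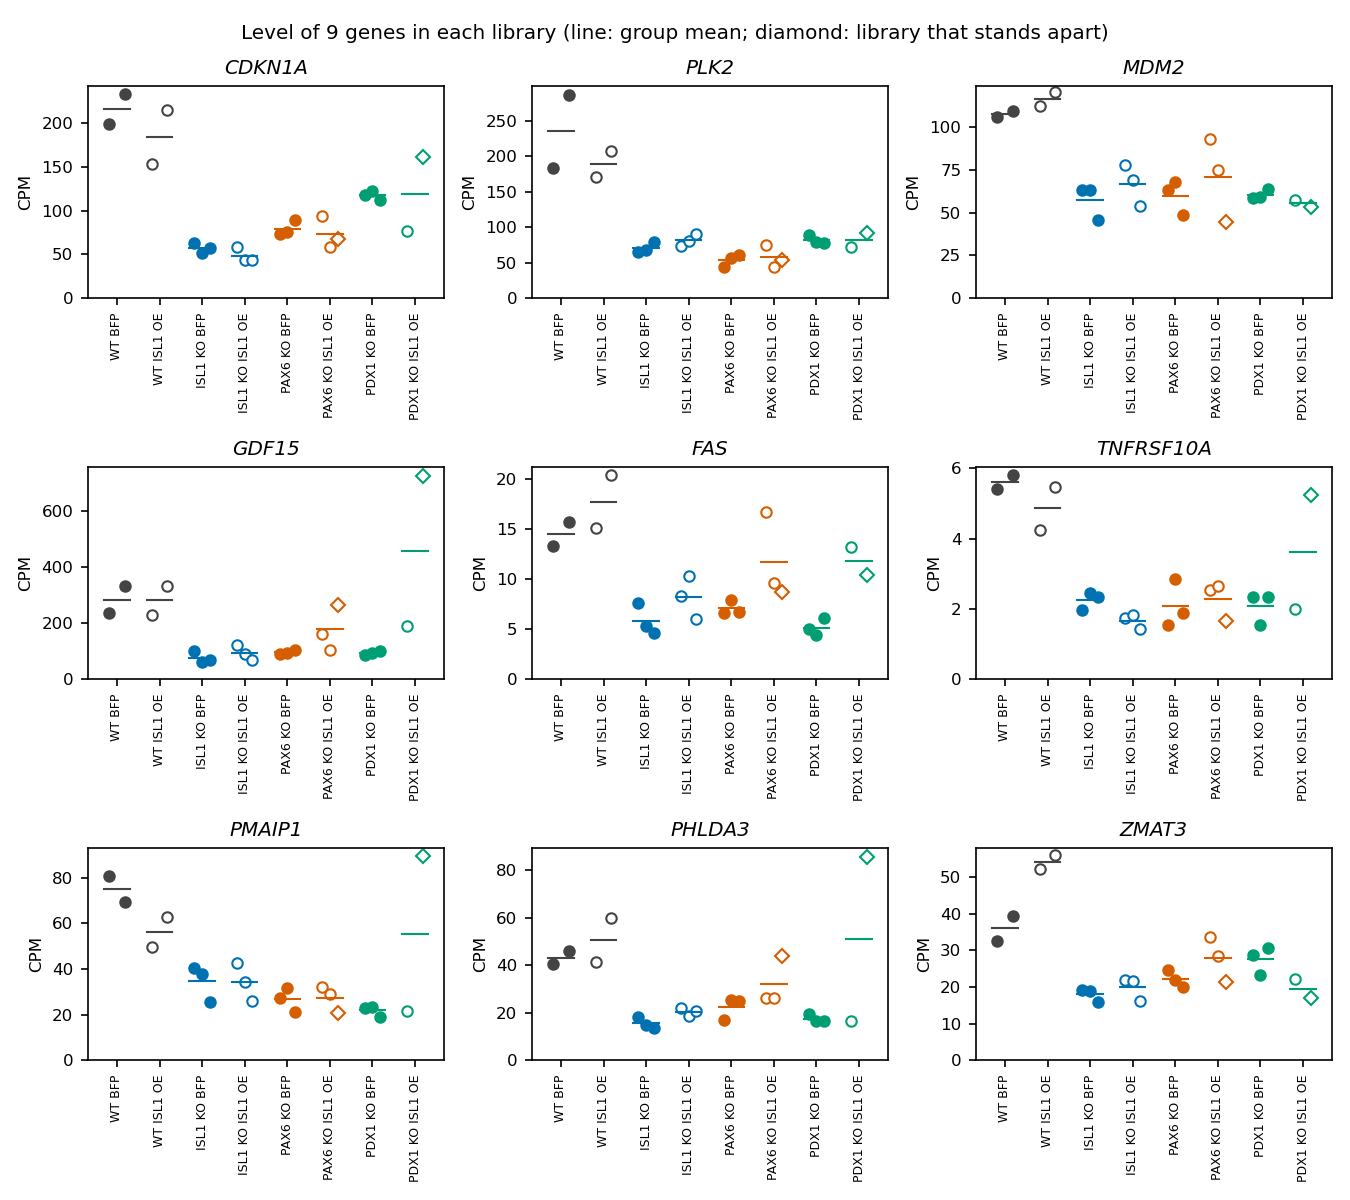
CPM (vertical axis, from 0) of 9 members in each library, by group, with group means as lines, BFP libraries filled, ISL1 OE libraries open and the 2 libraries apart as diamonds. PLK2 and MDM2 in all 17 knockout libraries lie under the 4 WT libraries, and the diamonds of GDF15, PHLDA3 and PMAIP1 in PDX1 KO ISL1 OE lie above them.

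ZMAT3, a p53-induced RNA-binding protein that controls splicing, had CPM values of 32.6 and 39.3 in WT BFP, 19.3, 18.97 and 15.98 in ISL1 KO BFP, 24.6, 21.9 and 19.9 in PAX6 KO BFP and 28.6, 23.3 and 30.6 in PDX1 KO BFP. With the ISL1 vector it was at 52.2 and 55.9 in WT ISL1 OE, 21.9, 21.6 and 16.03 in ISL1 KO ISL1 OE, 33.7, 28.5 and 21.3 in PAX6 KO ISL1 OE and 22.2 and 16.9 in PDX1 KO ISL1 OE. It was lower in each knockout library than in the WT libraries of its arm. In BFP libraries ZMAT3 fell in ISL1 KO (-0.99 ± 0.22 SE, adjusted p = 0.012) and was at -0.70 ± 0.22 in PAX6 KO and -0.39 ± 0.22 for PDX1 KO, and the call was lost without WT BFP replicate 3 or ISL1 KO BFP replicate 3 (log2 -1.12 to -0.86, adjusted p up to 0.127). In the ISL1 OE arm it fell in ISL1 KO (-1.45 ± 0.22 SE, adjusted p = 0.00146), PAX6 KO (-0.96 ± 0.22 SE, adjusted p = 0.0192) and PDX1 KO (-1.47 ± 0.24 SE, adjusted p = 0.0129). Of these, the ISL1 KO call held without each library. Those in PAX6 KO and PDX1 KO were lost without either WT ISL1 OE library, and in PAX6 KO also without its replicate 3 (log2 -1.07 to -0.80, adjusted p up to 0.171 and log2 -1.61 to -1.27, adjusted p up to 0.126). AEN, an apoptosis-enhancing nuclease, lay between -0.27 and -0.16, and its value in PAX6 KO passed without the libraries apart (-0.26 ± 0.09 SE, adjusted p = 0.0381). In mean TPM AEN was instead higher in each knockout, at 49.9 in WT BFP and 54.4, 54.6 and 52.7 in ISL1 KO, PAX6 KO and PDX1 KO BFP. TP53INP1, which promotes autophagic death, had CPM values of 347 and 403 in WT BFP, 379, 479 and 341 in ISL1 KO BFP, 542, 354 and 340.2 in PAX6 KO BFP and 608, 615 and 769 in PDX1 KO BFP, and its log2 fold change of 0.82 ± 0.62 in PDX1 KO passed the test without the libraries apart alone (0.81 ± 0.21 SE, adjusted p = 0.00767).

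Of the 3 death receptors, FAS and TNFRSF10A fell in each knockout. FAS, which triggers the extrinsic pathway on binding its ligand, had CPM values of 13.3 and 15.7 in WT BFP, 7.60, 5.31 and 4.66 in ISL1 KO BFP, 6.62, 7.87 and 6.73 in PAX6 KO BFP and 5.04, 4.38 and 6.08 in PDX1 KO BFP. The WT values were above all 9 knockout values. FAS fell in ISL1 KO (-1.31 ± 0.30 SE, adjusted p = 0.0151), PAX6 KO (-1.03 ± 0.30 SE, adjusted p = 0.0484) and PDX1 KO (-1.49 ± 0.31 SE, adjusted p = 0.00433). The PDX1 KO call held without each library in turn, the PAX6 KO call was lost without any 1 of 5 (log2 -1.11 to -0.88, adjusted p up to 0.292), and the ISL1 KO call was lost without WT BFP replicate 1 or 3 or ISL1 KO BFP replicate 2 or 3 (log2 -1.54 to -1.17, adjusted p up to 0.124). With the ISL1 vector FAS had CPM values of 15.1 and 20.4 in WT ISL1 OE, 8.31, 10.4 and 5.996 in ISL1 KO ISL1 OE, 16.7, 9.67 and 8.72 in PAX6 KO ISL1 OE and 13.2 and 10.4 in PDX1 KO ISL1 OE. It fell in ISL1 KO (-1.11 ± 0.30 SE, adjusted p = 0.0454), a call lost without any 1 of 5 libraries (log2 -1.31 to -0.88, adjusted p up to 0.362), while PAX6 KO overlapped WT there.

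TNFRSF10A encodes DR4, a receptor for TRAIL, and was near the bottom of the list in level. TNFRSF10A had CPM values of 5.42 and 5.82 in WT BFP, 1.96, 2.46 and 2.34 in ISL1 KO BFP, 1.54, 2.85 and 1.89 in PAX6 KO BFP and 2.33, 1.54 and 2.34 in PDX1 KO BFP. All 9 knockout values were below both WT values. TNFRSF10A fell in ISL1 KO (-1.32 ± 0.36 SE, adjusted p = 0.0358), PAX6 KO (-1.42 ± 0.36 SE, adjusted p = 0.0244) and PDX1 KO (-1.44 ± 0.36 SE, adjusted p = 0.015). The call was lost without any 1 of 5 libraries in ISL1 KO (log2 -1.38 to -1.23, adjusted p up to 0.191), without WT BFP replicate 1 or 3 or PAX6 KO BFP replicate 1 or 3 in PAX6 KO (log2 -1.68 to -1.25, adjusted p up to 0.169), and without WT BFP replicate 1 or 3 or PDX1 KO BFP replicate 2 in PDX1 KO (log2 -1.54 to -1.26, adjusted p up to 0.0958). The ISL1 OE arm gave CPM values of 4.24 and 5.48 in WT ISL1 OE, 1.74, 1.83 and 1.44 in ISL1 KO ISL1 OE, 2.53, 2.65 and 1.65 in PAX6 KO ISL1 OE and 1.99 and 5.25 in PDX1 KO ISL1 OE, and TNFRSF10A fell there in ISL1 KO (-1.54 ± 0.36 SE, adjusted p = 0.0215), again lost without any 1 of 5 libraries (log2 -1.71 to -1.35, adjusted p up to 0.216).

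TNFRSF10B encodes DR5, the second TRAIL receptor, and was far more abundant. TNFRSF10B had CPM values of 130.2 and 123 in WT BFP, 91.4, 96.4 and 64.0 in ISL1 KO BFP, 71.3, 102 and 62.8 in PAX6 KO BFP and 51.1, 39.1 and 51.9 in PDX1 KO BFP. All knockout values were below both WT values, yet its log2 fold changes of -0.59 ± 0.51 in ISL1 KO, -0.69 ± 0.51 in PAX6 KO and -1.42 ± 0.51 for PDX1 KO did not pass over all libraries. Between the libraries apart and the others of their groups it differed by -2.47 and -1.45 log2 units, and without them TNFRSF10B fell in all 3 (-0.60 ± 0.20 SE, adjusted p = 0.032, -0.68 ± 0.20 SE, adjusted p = 0.0166 and -1.44 ± 0.20 SE, adjusted p = 3.75e-05). CASP8, the caspase that these receptors activate, had CPM values of 8.85 and 7.86 in WT BFP, 4.71, 7.17 and 4.07 in ISL1 KO BFP, 3.86, 7.45 and 6.20 in PAX6 KO BFP and 5.28, 2.03 and 3.76 in PDX1 KO BFP and was at -0.65 ± 0.45, -0.52 ± 0.45 and -1.18 ± 0.46, none called over all libraries, with PDX1 KO passing without the libraries apart (-1.21 ± 0.36 SE, adjusted p = 0.0149).

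Within the BCL2 family, PMAIP1 differed most. PMAIP1 encodes NOXA, a BH3-only protein that neutralises MCL1. PMAIP1 had CPM values of 80.9 and 69.4 in WT BFP, 40.5, 37.8 and 25.4 in ISL1 KO BFP, 27.4, 31.6 and 21.3 in PAX6 KO BFP and 22.97, 23.4 and 19.1 in PDX1 KO BFP. The highest knockout value was under the lower WT value. PMAIP1 fell in PAX6 KO (-1.49 ± 0.41 SE, adjusted p = 0.0336) and PDX1 KO (-1.78 ± 0.41 SE, adjusted p = 0.00824) and was at -1.12 ± 0.41 in ISL1 KO. The PAX6 KO call was lost without any 1 of 5 libraries (log2 -1.60 to -1.34, adjusted p up to 0.234) and the PDX1 KO call without WT BFP replicate 1 (log2 -1.88 to -1.65, adjusted p up to 0.0865). PMAIP1 passed in all 3 once the libraries apart were left out (adjusted p = 0.000933, 8.88e-05 and 9.21e-06). PMAIP1 had CPM values in the ISL1 OE arm of 49.7 and 62.9 in WT ISL1 OE, 42.8, 34.5 and 26.1 in ISL1 KO ISL1 OE, 31.99, 28.9 and 20.5 in PAX6 KO ISL1 OE and 21.6 and 89.5 in PDX1 KO ISL1 OE, the last from a library apart and above WT.

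The other killers of the family showed smaller differences. BBC3, which encodes PUMA, had CPM values of 17.9 and 16.2 in WT BFP, 11.7, 7.58 and 8.84 in ISL1 KO BFP, 11.97, 13.6 and 10.7 in PAX6 KO BFP and 11.9, 11.99 and 11.6 in PDX1 KO BFP and was at -0.86 ± 0.30, -0.50 ± 0.30 and -0.52 ± 0.30. It passed in ISL1 KO alone when the libraries apart were left out (-0.87 ± 0.21 SE, adjusted p = 0.00502). BAX, the pore former of the mitochondrial outer membrane, had CPM values of 119.6 and 121.7 in WT BFP, 115.3, 87.3 and 102 in ISL1 KO BFP, 82.6, 101 and 95.7 in PAX6 KO BFP and 90.9, 91.1 and 78.6 in PDX1 KO BFP, just below WT in each knockout, with log2 fold changes of -0.25 ± 0.38, -0.37 ± 0.38 and -0.47 ± 0.38, of which those of PAX6 KO and PDX1 KO passed without the libraries apart (adjusted p = 0.0362 and 0.00536). In mean TPM BAX was clearly lower in PDX1 KO alone. It was at 243.3 in WT BFP and 252.1, 241.7 and 213.9 in ISL1 KO, PAX6 KO and PDX1 KO BFP. BCL2L11, which encodes BIM and is driven by FOXO factors more than by p53, had CPM values of 12.7 and 11.7 in WT BFP, 16.4, 18.2 and 15.6 in ISL1 KO BFP, 22.7, 18.1 and 16.02 in PAX6 KO BFP and 16.7, 11.6 and 19.8 in PDX1 KO BFP and was above WT in ISL1 KO (0.46 ± 0.41) and PAX6 KO (0.64 ± 0.41), a difference that passed in PAX6 KO alone and without the libraries apart alone (0.65 ± 0.23 SE, adjusted p = 0.0447).

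Of the 3 survival genes of the family, none fell and 1 rose over all libraries. BCL2, the founding anti-apoptotic member, had CPM values of 4.61 and 2.36 in WT BFP, 5.58, 5.07 and 4.45 in ISL1 KO BFP, 7.09, 8.39 and 5.81 in PAX6 KO BFP and 4.90, 3.35 and 4.50 in PDX1 KO BFP and rose in PAX6 KO (1.02 ± 0.29 SE, adjusted p = 0.0496). The WT values themselves lay far apart, and the call was lost without WT BFP replicate 3 or any 1 PAX6 KO library (log2 0.65 to 1.62, adjusted p up to 0.424). It was also lost with the replicate number as a block within ISL1 KO and PAX6 KO (log2 1.01, adjusted p = 0.0798). BCL2L1 and MCL1, the other 2 guardians, were at -0.34 and -0.42 in ISL1 KO, -0.19 and -0.18 in PAX6 KO and -0.26 and -0.08 in PDX1 KO, none called. Without the libraries apart both fell in ISL1 KO (-0.35 ± 0.11 SE, adjusted p = 0.0237 for BCL2L1 and -0.43 ± 0.13 SE, adjusted p = 0.0227 for MCL1).

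In ISL1 OE libraries the calls against WT were fewer, and all of them were lower in the knockout. In ISL1 KO 5 fell, 15.6% against 4.13% of all genes (2.93% fell). In PAX6 KO 3 fell, 9.38% against 4.26% (2.88% fell), and in PDX1 KO 2 fell, 6.25% against 0.78% (0.325% fell). None rose. The medians of -0.622, -0.606 and -0.463 stood beside 0.015, 0.067 and 0.047 over all genes. The genes that fell were CDKN1A, PLK2, ZMAT3, FAS and TNFRSF10A, with the values given above. Liver markers summed to 11890 to 13020 CPM in WT ISL1 OE, 6252 to 8064 in ISL1 KO ISL1 OE, 6546 to 11240 in PAX6 KO ISL1 OE and 8659 and 33290 in PDX1 KO ISL1 OE. Mesenchymal markers summed to 1430 and 1647 CPM in WT ISL1 OE and 102.6 to 810.7 in the knockouts, with none called. Endothelial markers summed to 25.4 and 33.7 CPM in WT ISL1 OE and 1.09 to 15.8 in the knockouts, and 1 of 5 fell in PAX6 KO. Of the liver, mesenchymal and endothelial sums, liver in PDX1 KO ISL1 OE replicate 4 alone was not below both WT values. The part of these cells was not tested. Leaving out the libraries apart, 17, 12 and 12 were called, all lower, beside 23.7%, 14.5% and 7.90% of all genes, and the medians were -0.626, -0.424 and -0.486. With the replicate block over all libraries 8 were called in ISL1 KO and 5 in PAX6 KO. The share of all genes called with the block is not given here, so these 2 counts do not set the members apart from other genes. Without the libraries apart PDX1 KO is represented by a single ISL1 OE library, whose spread is taken from the other groups. The counts of 5 in ISL1 KO and 3 in PAX6 KO fell without either WT ISL1 OE library, which leaves 1 in that group. Leaving out 1 library at a time gave 3 calls in ISL1 KO without any 1 ISL1 KO library (beside 1.76% to 1.97% of all genes). In PAX6 KO it gave 2 to 3 without any 1 PAX6 KO library (beside 3.35% to 4.82%). For PDX1 KO it gave 0 without either WT ISL1 OE library, 5 without replicate 4 (beside 2.73% of all genes) and 17 without replicate 2 (beside 37.5%).

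**Figure D5:**
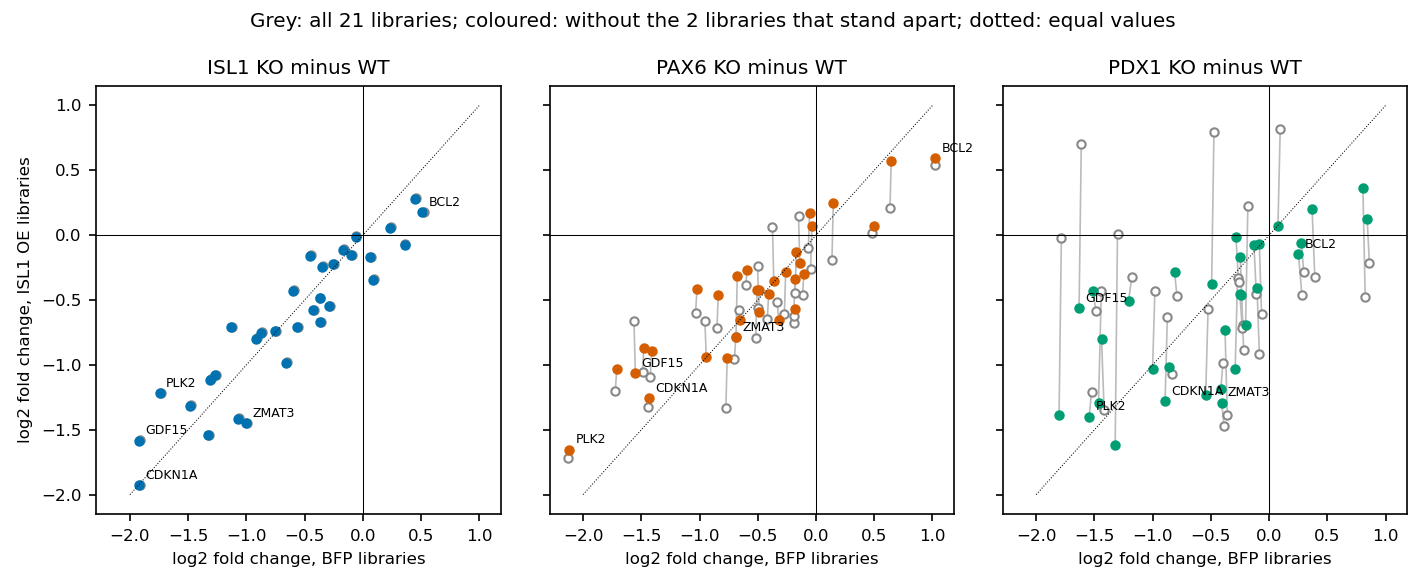
Log2 fold change of the 32 genes against WT in BFP libraries (horizontal axis) and ISL1 OE libraries (vertical axis), one panel per knockout, with grey open points over all 21 libraries and coloured points without the 2 libraries apart. Most coloured points lie in the lower left part of each panel, and the grey points of PDX1 KO are spread upward and downward from them.

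Between the vectors, calls over all libraries were found in PDX1 KO alone. By edgeR no member passed in WT, ISL1 KO or PAX6 KO, where 0.0361%, 0.424% and 0.415% of all genes did, and none in WT without the libraries apart, where 1.69% did. At an unadjusted p under 0.05 there were 1, 2 and 5 members, and DESeq2 called 1 member in PAX6 KO and none in the other 2. No share of all genes is given for the unadjusted and DESeq2 counts, so they do not set the members apart from other genes. The intervals still allow sizeable effects: the log2 difference in CDKN1A was -0.23 in WT (-0.87 to 0.41), -0.24 in ISL1 KO (-0.77 to 0.28) and -0.11 in PAX6 KO (-0.63 to 0.41). Without the libraries apart, in ISL1 KO DDB2 rose (0.58 ± 0.14 SE, adjusted p = 0.0192) and FBXW7 fell (-0.65 ± 0.13 SE, adjusted p = 0.00859), beside 5.92% of all genes. In PAX6 KO DDB2, MDM4 and FAS then rose (0.57 ± 0.15 SE, adjusted p = 0.0374, 0.54 ± 0.14 SE, adjusted p = 0.0328 and 0.91 ± 0.26 SE, adjusted p = 0.0496) and FBXW7 fell (-0.64 ± 0.15 SE, adjusted p = 0.0227), beside 6.02%.

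In PDX1 KO 7 members rose and 2 fell with the ISL1 vector, 28.1% against 14.4% of all genes (9.09% rose and 5.34% fell), and most of these calls rested on replicate 4. The 7 were GDF15 (2.30 ± 0.44 SE, adjusted p = 0.00367), PHLDA3 (1.54 ± 0.43 SE, adjusted p = 0.0256), PMAIP1 (1.35 ± 0.41 SE, adjusted p = 0.0339), BAX (1.32 ± 0.38 SE, adjusted p = 0.0266), FAS (1.20 ± 0.31 SE, adjusted p = 0.0163), DDB2 (1.12 ± 0.25 SE, adjusted p = 0.0083) and TP53I3 (0.90 ± 0.29 SE, adjusted p = 0.0484), and the 2 were FBXW7 (-1.30 ± 0.22 SE, adjusted p = 0.00259) and PLK3 (-0.66 ± 0.21 SE, adjusted p = 0.0483). The FAS and FBXW7 calls held without each library in turn. Those of DDB2 and GDF15 were lost without replicate 4 (log2 0.55 to 1.62, adjusted p up to 0.25 for DDB2, log2 1.07 to 3.04, adjusted p up to 0.182 for GDF15). Those of BAX, PHLDA3, PLK3, PMAIP1 and TP53I3 were lost without replicate 4 and also without any 1 BFP library, with adjusted p up to 0.874, 0.972, 0.496, 0.994 and 0.851. With the replicate block those of PLK3 and TP53I3 were lost too (adjusted p = 0.0503 and 0.0606). BAX stood at 90.9, 91.1 and 78.6 CPM with BFP and at 96.7 and 338 with the ISL1 vector, in replicates 2 and 4. For TP53I3 the values were 107, 116.6 and 102 CPM and 120.8 and 284. Replicate 2 was close to the BFP libraries and replicate 4 far above them. Liver markers summed to 4890 to 5303 CPM with BFP, 8659 in replicate 2 and 33290 in replicate 4. Duct and progenitor markers summed to 570 to 663 CPM with BFP and 1183 and 2695 with the ISL1 vector. Endocrine markers summed to 45030 to 48450 and to 24750 and 26330. None of these ranges overlapped between the vectors, and the part of these cells was not tested. Without the libraries apart BAX was at 0.18, TP53I3 at 0.18, PMAIP1 at 0.01 and PHLDA3 at -0.06, and none of the 4 passed. Then FAS (1.38 ± 0.33 SE, adjusted p = 0.00931), GDF15 (1.06 ± 0.32 SE, adjusted p = 0.031), TNFRSF10B (0.91 ± 0.25 SE, adjusted p = 0.0229) and CCNG1 (0.49 ± 0.16 SE, adjusted p = 0.0498) were higher, and FBXW7 (-0.94 ± 0.19 SE, adjusted p = 0.00639) and TIGAR (-0.55 ± 0.16 SE, adjusted p = 0.0384) lower, beside 11.2% of all genes. Leaving out replicate 4 alone left 2 calls (beside 3.1% of all genes), leaving out replicate 2 gave 19 (beside 46.8%), and leaving out any 1 BFP library gave 4 (beside 5.77% to 8.26%).

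Whether the vector effect differed between a knockout and WT was tested as an interaction. No member passed in ISL1 KO, PAX6 KO or PDX1 KO by edgeR, where 0.00451%, 0% and 1.37% of all genes did, and DESeq2 called 3 members in PDX1 KO and none in the other 2. The share of all genes called by DESeq2 is not given here, so its count does not set the members apart. The lowest adjusted p among members was that of GDF15 in PDX1 KO (2.31 ± 0.65 SE, adjusted p = 0.0873). Leaving out PDX1 KO ISL1 OE replicate 2 gave 16 members in that comparison, beside 35.6% of all genes, and leaving out any other of the libraries compared gave 0.

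Between knockouts, BFP libraries differed in 1 member. CDKN1A was lower in ISL1 KO than in PDX1 KO (-1.04 ± 0.25 SE, adjusted p = 0.0204; 3.12% of members, against 5.71% of all genes, with 2.39% lower), and the groups did not overlap. The call was lost without any 1 of the 6 libraries (log2 -1.11 to -0.98, adjusted p up to 0.101). No member passed between ISL1 KO and PAX6 KO or between PAX6 KO and PDX1 KO by edgeR (2.78% and 3.62% of all genes), 0 and 5 had an unadjusted p under 0.05, and DESeq2 called 0 and 1. The percentages are for the adjusted edgeR test, and no share of all genes is given for the unadjusted and DESeq2 counts. Without the libraries apart the counts were 1, 10 and 6 for ISL1 KO against PAX6 KO, ISL1 KO against PDX1 KO and PAX6 KO against PDX1 KO, beside 10.7%, 26.1% and 20.1% of all genes. TNFRSF10B was then lower in PDX1 KO than in ISL1 KO (difference 0.84 ± 0.18 SE, adjusted p = 0.00277) and than in PAX6 KO (0.76 ± 0.18 SE, adjusted p = 0.00696). TP53INP1 was higher in PDX1 KO than in both (-0.72 ± 0.19 SE, adjusted p = 0.00925 and -0.66 ± 0.19 SE, adjusted p = 0.0198).

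A list of 43 further genes of the p53 and cell death pathways, of which 41 were tested, held a smaller share of calls. In BFP libraries 4 of 41 fell in ISL1 KO and 5 in PAX6 KO, and in PDX1 KO 7 fell and 1 rose (9.76%, 12.2% and 19.5%, against 6.53%, 6.65% and 11.4% of all genes). The medians were -0.147, -0.230 and 0.028. TNFRSF10C, a decoy receptor for TRAIL, fell in ISL1 KO (-2.01 ± 0.27 SE, adjusted p = 0.000333), PAX6 KO (-1.46 ± 0.27 SE, adjusted p = 0.00442) and PDX1 KO (-1.27 ± 0.27 SE, adjusted p = 0.00576), and the last 2 calls were lost without WT BFP replicate 3 (log2 -1.61 to -1.22, adjusted p up to 0.0954 and log2 -1.43 to -1.04, adjusted p up to 0.0944). BOK, a BAX relative, fell in ISL1 KO (-1.34 ± 0.27 SE, adjusted p = 0.00587), a call lost without WT BFP replicate 1 (log2 -1.49 to -1.19, adjusted p up to 0.0816). BAK1, the partner of BAX, fell in PAX6 KO (-0.74 ± 0.16 SE, adjusted p = 0.0102) and PDX1 KO (-0.63 ± 0.16 SE, adjusted p = 0.0153). These calls were lost without either WT BFP library, without PAX6 KO BFP replicate 1 in the first case and without PDX1 KO BFP replicate 1 or 3 in the second (log2 -0.78 to -0.67, adjusted p up to 0.12 and log2 -0.68 to -0.58, adjusted p up to 0.131). CFLAR, an inhibitor of CASP8, rose in PDX1 KO (0.55 ± 0.16 SE, adjusted p = 0.0384), lost without any 1 of 5 libraries (log2 0.49 to 0.59, adjusted p up to 0.185) and with the replicate block (adjusted p = 0.0527). In ISL1 OE libraries 2, 4 and 0 of the 41 fell and none rose (4.88%, 9.76% and 0%, against 4.13%, 4.26% and 0.78% of all genes). Between the vectors 5 rose and 1 fell in PDX1 KO, 14.6% against 14.4% of all genes, and none was called in the other 3 genotypes.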

How the data were processed

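RNA of 21 libraries was made into cDNA with SMART-Seq v4 and libraries with KAPA EvoPrep, per the labels' protocols. The submitters' processing notes name STAR (given as version 1.6.1) and GRCh38, with a counting tool not given in the sources used here. The authors deposited estimated counts and TPM per gene and estimated counts per transcript, by lane. The 4 lanes of each library were summed (84 of 97 lane columns; 12 columns belong to 3 libraries matched to no label and 1 repeats another with identical values, and none of these was used). Gene symbols came from GENCODE 29 for 34390 of 38592 genes, and 4202 had none.

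Sums were rounded to whole numbers and normalised with TMM (factors 0.707 to 1.15). In BFP libraries the factors were 0.927 and 0.889 in WT and 0.978 to 1.107 in the knockouts. A lower factor raises the CPM of a library, so this scaling raised WT BFP relative to the knockouts. A single edgeR 4.0.16 quasi-likelihood model in R 4.3.3 with a term for each of 8 groups was fitted after filterByExpr (22184 genes), and 16 comparisons were made, each adjusted by Benjamini-Hochberg over all genes tested. SE and 95% intervals come from that model. DESeq2 1.42.0 was an alternative. Deposited TPM values served only for levels per length. Scripts were tested on simulated data, made for PAX6 KO against WT in BFP libraries. Of 100 genes changed by 1 log2 unit 4 were recovered, and of 100 changed by 2 units 50 were, with 0 false calls. Members and lists were chosen with earlier results of these data known. Members called in at least 1 comparison of a knockout with WT or of the 2 vectors within a genotype are described by every library's value (17 members). Of the 43 pathway genes, at most 4 per comparison are named, those with the lowest adjusted p; a few genes and 1 marker list that the rules would name are not reported here.

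Replicate numbers come from the column names. Same-numbered BFP and ISL1 OE libraries deviated together in PAX6 KO (correlations 0.176, 0.382 and 0.346), so the numbers pair there. In ISL1 KO they were 0.17, 0.0992 and 0.307. Each was above the best correlation with another number (0.0328, 0.0854 and -0.118), narrowly for replicate 2, so the pairing is less clear there.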

Additional observations from a re-analysis of the deposited data

Results flagged for a closer look

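A difference between 2 knockouts passed the test itself in the 5 cases reported here, in BFP libraries and against PDX1 KO. CDKN1A was lower in ISL1 KO than in PDX1 KO, with a log2 difference of -1.04 by edgeR's quasi-likelihood test. CHEK1 and CHEK2, checkpoint kinases upstream of p53, were higher in ISL1 KO than in PDX1 KO by 1.32 and 1.27. CFLAR was lower in ISL1 KO (-0.53) and in PAX6 KO (-0.59) than in PDX1 KO. Between ISL1 KO and PDX1 KO, 3.12% of members and 7.32% of the pathway genes tested passed, against 5.71% of all genes. Between PAX6 KO and PDX1 KO, 0% of members and 4.88% of the pathway genes did, against 3.62%. These shares lie near or below those of all genes. Without any 1 of the 6 libraries compared the CDKN1A call and both CFLAR calls were lost (adjusted p up to 0.101, 0.161 and 0.146), while those of CHEK1 and CHEK2 held (up to 0.0248 and 0.034). The CFLAR call in ISL1 KO was also lost with the replicate number as a block (adjusted p = 0.0512). Proliferation markers moved with the CHEK1 and CHEK2 differences, at a summed 353 to 498 CPM in ISL1 KO BFP and 129 to 161 in PDX1 KO BFP, and their part was not tested.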

How the results depend on the processing

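Counts of members called are given over all 21 libraries unless said otherwise. The share of all genes called moved as well, as given above for the fit without the 2 libraries apart. A count printed in this section without that share does not set the members apart from other genes. In BFP libraries 8, 8 and 10 members were called in ISL1 KO, PAX6 KO and PDX1 KO. Without the 2 libraries apart these were 17, 20 and 16, in a fit of the groups compared alone 18, 16 and 16, and in a fit of the BFP libraries alone, added after seeing the data, 16, 18 and 16. Scaling by library size alone gave 4 in ISL1 KO and 3 in PAX6 KO, and no filter on low counts gave 5 in ISL1 KO. In ISL1 OE libraries the counts of 5, 3 and 2 became 17, 12 and 12 without the libraries apart and 18, 0 and 0 in a fit of the groups compared alone. DESeq2 gave 8 in ISL1 KO and 6 in PAX6 KO, and RLE size factors and no filter each gave 1 in PDX1 KO.

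The vector effect in PDX1 KO fell from 9 members to 5 with library size alone and 0 in a fit of its own groups. In ISL1 KO it went from 0 to 2 without the libraries apart and 1 in a fit of its own groups, and in PAX6 KO from 0 to 1 with DESeq2 and 4 without the libraries apart. The interaction in PDX1 KO went from 0 to 3 with DESeq2. Between knockouts the counts of 0, 1 and 0 (ISL1 KO against PAX6 KO, ISL1 KO against PDX1 KO, PAX6 KO against PDX1 KO) became 1, 10 and 6 without the libraries apart, 1, 11 and 6 with BFP libraries alone, 1, 10 and 6 in a fit of the groups compared alone, and 2 and 1 for the last 2 with DESeq2.

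With the replicate number as a block within ISL1 KO and PAX6 KO, calls went from 5 to 8 in ISL1 KO and from 3 to 5 in PAX6 KO (ISL1 OE libraries), from 1 to 2 for ISL1 KO against PDX1 KO and from 0 to 1 for PAX6 KO against PDX1 KO, and all other counts stayed within 1.5 times; every library correlated best with its own number. Leaving out 1 library at a time gave 2 to 5, 1 to 3 and 2 to 7 calls in the BFP comparisons, 2 to 3, 1 to 3 and 0 to 17 in the ISL1 OE comparisons, 2 to 19 for the vector in PDX1 KO, 0 to 16 for its interaction and 0 in all other comparisons. Calls of single members and pathway genes also moved with the settings. With library size alone 24 were lost and 39 held, with no filter 17 and 46, and in fits of the groups compared alone 15 and 48. With RLE size factors 3 were lost and 60 held, and with DESeq2 63 held. PLK2 in PAX6 KO ISL1 OE was lost in a fit of its own groups (adjusted p = 0.154). Of the single calls, PHLDA3 in PDX1 KO with the ISL1 vector alone changed sign, to -0.056 without the 2 libraries apart and -0.048 without replicate 4, and its range over single libraries left out reached 2.37. The direction of the median over the 32 genes in the 6 comparisons with WT was negative under each of these settings.

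An arm has 2 WT libraries and the common dispersion was 0.114, so a difference that did not pass is not shown to be absent. The cause of the moved counts was not tested. Intervals cover the spread between these libraries only.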
